A study of Mus musculus with 2 samples.

Results

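Basal non-cycling urothelium here means nuclei with RNA of genes that mark the layer of the ureteric epithelium on the basement membrane, without dividing nuclei. Their position in the tissue was not seen. Nuclei of mouse ureters were chosen by UMI counts of named genes (a UMI, or unique molecular identifier, marks 1 captured RNA molecule). A nucleus was epithelial if at least 3 of 12 epithelial genes, among them Cdh1, Epcam and Krt18, had a UMI and at most 1 of 7 mesenchymal or endothelial genes did. It was basal if Krt5, Lamb3, Itgb4 and Itga3 summed to 3 or more UMIs, and non-cycling if fewer than 2 of Mki67, Top2a, Cenpf, Kif11 and Aspm had a UMI. Nuclei below 300 detected genes or above 5% mitochondrial UMIs did not enter. The rule found 568 nuclei among 14590, of which 139 came from the DNp63cKO library and 429 from the control library.

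The study asked what the amino-terminally truncated form of p63 does in the epithelium of the developing ureter. The DNp63cKO pool held ureters of 14 mice of genotype Pax2-cre/+;DNp63fl/fl;R26mTmG/+ at postnatal day 0, and the control pool held ureters of 13 mice of the same day whose genotype is given only as wt. Pax2-cre recombines in the nephric duct lineage, from which the ureteric epithelium grows, R26mTmG is a membrane reporter, and the labels do not say whether control mice carried either. Nuclear RNA of each pool gave 1 library, so mice cannot be told apart within a pool, no difference has a replicate check, and no test was run. Every interval is a 95% exact interval that covers counting error only, and differences between the libraries cannot be told apart from differences between the genotypes.

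The urothelium of the ureter has a basal, an intermediate and a superficial layer. Basal cells carry keratin 5, are anchored to the basement membrane through laminin 332 and the integrin α6β4 of hemidesmosomes, and in many stratified epithelia depend on p63, whose truncated form is the main one in basal cells. Superficial cells carry plaques of uroplakins, and Shh made by the epithelium signals to the mesenchyme around it.

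The DNp63cKO library held 9859451 UMIs in 5528 nuclei, and the control library 16063644 UMIs in 9062 nuclei. Epithelial nuclei made up 18.3% of the filtered nuclei in the DNp63cKO library and 30.6% in the control library. Basal nuclei had a median of 1357 UMIs in the DNp63cKO library and 1568 in the control library. The 2 libraries shared 58 barcodes, which 5 DNp63cKO and 3 control basal nuclei carried. A Y-linked UMI and no Xist UMI were found in 15.8% of DNp63cKO basal nuclei (10.2% to 23.0%, 22 nuclei) and 7.69% of control basal nuclei (5.35% to 10.6%, 33 nuclei), intervals that overlap. Yet in basal nuclei the log2 ratio of DNp63cKO over control was 1.20 (0.45 to 2.11) for Y-linked Uty and -0.30 (-0.49 to -0.11) for Xist. Y-linked Ddx3y was higher too (0.19 to 1.94), while the interval of Eif2s3y (-0.72 to 1.58) held 0. Other non-cycling epithelial nuclei had 0.55 (0.26 to 0.91) for Uty and -0.36 (-0.45 to -0.28) for Xist, with Kdm5d (-0.30 to 1.03) holding 0. Whether the mix of sexes differed was not tested. In the basal nuclei with a Y-linked and no Xist UMI alone, the ratios of Atp5a1, Atp5g3, Dsg2, Gsdmc2, Itgb1 and Tbx3 had the opposite sign to those given below. The part of sex in the other results was not tested.

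The 4 genes of the gate chose the nuclei, so their values are a description and support nothing. Krt5, the type II keratin of basal cells, reached 723 CPM (UMIs of the gene per 1000000 UMIs, both summed over the nuclei) in DNp63cKO basal nuclei and 534 CPM in control basal nuclei. Itga3, the α subunit of a laminin receptor, reached 1108 CPM in DNp63cKO and 676 CPM in control basal nuclei. A UMI of Krt5 itself was present in 78 of the 139 DNp63cKO basal nuclei and in 197 of the 429 control basal nuclei, so many nuclei passed the gate through the integrin and laminin genes. All 4 genes had a UMI in 21 DNp63cKO and 37 control basal nuclei, and 1 gene alone filled the gate in 10 DNp63cKO and 54 control basal nuclei. Nuclei with exactly 3 UMIs, just inside the gate, numbered 47 in the DNp63cKO library and 174 in the control library.

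Of the basal markers that the gate did not use, all but Col17a1 had UMIs in both libraries. Their 9 genes summed to 1624 CPM in DNp63cKO basal nuclei against 701 CPM in the other non-cycling epithelial nuclei of that library, which had 0 to 2 gate UMIs. In the control library they summed to 1585 CPM in basal nuclei and 1171 CPM in the other nuclei. The sum was thus higher in basal nuclei in both libraries, with a wider gap in DNp63cKO ureters, but single markers differed. Krt14 had 488 CPM in basal and 44.9 CPM in other DNp63cKO nuclei, and 34.6 CPM and 9.86 CPM in control ones. Trp63 had a log2 of basal over other nuclei of 0.45 (-0.08 to 0.97) in DNp63cKO and 0.91 (0.72 to 1.14) in control ureters. These intervals overlap, and that of DNp63cKO holds 0. Itga6 was at a like level in basal and other nuclei of each library, as given below. Markers of other tissues were present too. The 8 fibroblast markers summed to 990 CPM in DNp63cKO and 571 CPM in control basal nuclei, all 8 having a UMI in each library, and the 9 smooth muscle markers to 718 CPM in DNp63cKO and 548 CPM in control basal nuclei. The 6 erythroid markers summed to 206 CPM in DNp63cKO and 40.8 CPM in control basal nuclei, with Slc4a1 at 0 in both and Alas2 also at 0 in DNp63cKO, and to 855 CPM in DNp63cKO and 820 CPM in control mesenchymal nuclei. Of the 7 leukocyte markers, 5 were at 0 in each library, Ptprc among them.

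Mesenchymal nuclei gave the level of epithelial RNA carried over as free RNA. At least 3 gate UMIs were found in 0.840% of 2142 DNp63cKO mesenchymal nuclei and in 1.98% of 2373 control mesenchymal nuclei, with median depths of 1048.5 UMIs in DNp63cKO and 850 UMIs in control mesenchymal nuclei. From 23 marker genes, free RNA was estimated at 25.6% of the UMIs of DNp63cKO basal nuclei and 20.1% of those of control basal nuclei.

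At the gate of 3 UMIs the intervals of the share of epithelial nuclei that were basal and non-cycling overlapped between the libraries. It was 13.8% in DNp63cKO ureters (11.8% to 16.1%, 139 of 1004 nuclei) and 15.8% in control ureters (14.4% to 17.2%, 429 of 2722 nuclei). With a gate of 2 or more UMIs they did not overlap, at 21.1% in DNp63cKO (18.6% to 23.8%) and 28.3% in control ureters (26.6% to 29.98%). Non-cycling epithelial nuclei with 1000 or more UMIs were then each reduced to 1000 UMIs. Shallower ones were left out, which kept 730 of 899 DNp63cKO and 1755 of 2519 control nuclei. Of these, 9.86% of DNp63cKO nuclei and 9.91% of control nuclei still held 3 or more gate UMIs. The low end of the gate differed more: 30.1% of the DNp63cKO nuclei (26.8% to 33.6%) and 45.2% of the control nuclei (42.8% to 47.5%) held at least 1 gate UMI at that depth. At least 2 gate UMIs were held by 15.6% of the DNp63cKO nuclei (13.1% to 18.5%) and 21.6% of the control nuclei (19.7% to 23.6%). A smaller share of DNp63cKO nuclei thus held at least 1 and at least 2 UMIs of the gate genes, while the shares with 3 or more were alike. The 4 genes were also lower in DNp63cKO mesenchymal nuclei, where they summed to 136 CPM, against 285 CPM in control mesenchymal nuclei, and the part of free RNA in the shares was not tested.

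Past the same gate, nuclei with cycling genes made up a larger share in the DNp63cKO library. They were 26.5% of the nuclei past the basal gate in DNp63cKO ureters (20.3% to 33.3%, 50 of 189) and 14.5% in control ureters (11.6% to 17.9%, 73 of 502). Below the basal gate, they were 6.75% of 815 DNp63cKO nuclei and 5.86% of 2220 control nuclei, with overlapping intervals. At 1000 UMIs per nucleus, at least 1 cycling gene had a UMI in 36.6% of DNp63cKO and 23.5% of control nuclei past the gate, and in 17.2% of DNp63cKO and 15.1% of control nuclei below it. These cycling nuclei are left out of all that follows.

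**Figure D1:**
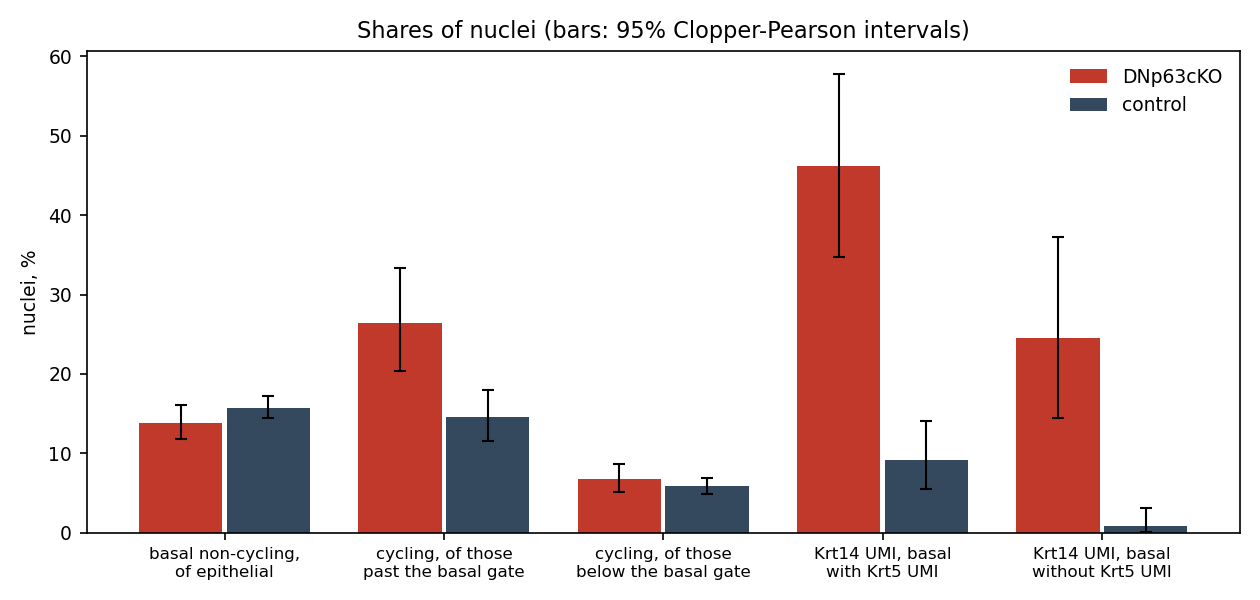
Shares of nuclei in percent on the vertical axis, DNp63cKO in red and control in dark blue, with 95% Clopper-Pearson intervals as bars. The basal non-cycling share is 13.8% in DNp63cKO and 15.8% in control ureters, while Krt14 UMIs among basal nuclei with a Krt5 UMI reach 46.2% in DNp63cKO and 9.14% in control ureters.

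Genes of several kinds were higher in basal nuclei than in the rest of the epithelium in both libraries, among them Jag2, Lama3, Lfng, Ptges and Pdgfa. The ratio is the log2 of CPM + 5 in basal nuclei over that in other non-cycling epithelial nuclei of the same library. Outside the gate genes, Jag2, a Notch ligand, had 324 CPM in basal and 59.3 CPM in other DNp63cKO nuclei, and 307 CPM in basal and 100 CPM in other control nuclei (log2 2.35 in DNp63cKO and 1.56 in control). Lama3, the α chain of laminin 332, had 225 CPM in basal and 30.5 CPM in other DNp63cKO nuclei, and 153 CPM in basal and 54.0 CPM in other control nuclei (log2 2.698 in DNp63cKO and 1.43 in control). Lfng, which modifies Notch receptors with sugars, was higher in basal nuclei by log2 2.30 in DNp63cKO and 1.62 in control ureters.

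Other genes among those with the highest basal over other ratios in both libraries were of several kinds. Ptges, a prostaglandin E synthase, had 249 CPM in DNp63cKO basal nuclei and 152 CPM in control basal nuclei, against 43.2 CPM in DNp63cKO and 49.6 CPM in control other nuclei. Pdgfa, a growth factor for mesenchymal cells, was higher in basal nuclei by log2 1.93 in DNp63cKO and 1.45 in control ureters. Igfbp2, which binds insulin-like growth factors, was higher by 2.87 in DNp63cKO and 1.40 in control ureters. Mfge8, a secreted integrin-binding glycoprotein, was higher by 2.42 in DNp63cKO and 1.35 in control ureters, the control value being -0.45 in nuclei with a Y-linked and no Xist UMI. Npnt, a basement membrane ligand of integrin α8, was higher by 1.39 in DNp63cKO and 1.46 in control ureters.

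Genes 2-fold or more higher in basal nuclei made up 6.37% of 9862 genes in the DNp63cKO library and 0.994% of 12278 genes in the control library. Those 2-fold or more lower made up 8.41% in the DNp63cKO library and 1.6% in the control library. In both libraries at once, 0.691% of 9837 genes were that much higher and 0.752% that much lower. The DNp63cKO shares rest on fewer UMIs, 213085 in basal nuclei against 808804 in control basal nuclei, and the part of depth in this difference was not tested.

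The basal cell gene list (12 genes, none of the gate) was higher in basal nuclei for every measured member, a direction held by 51.5% of all genes in the DNp63cKO and 53.4% in the control library. Its median log2 was 2.04 over 7 genes in the DNp63cKO library and 1.004 over 10 genes in the control library. Over all genes the median was 0.02 in the DNp63cKO library and 0.03 in the control library. For Cdh3, the P-cadherin of basal layers, basal nuclei had 108 CPM in DNp63cKO and 82.8 CPM in control ureters, against 16.1 CPM in DNp63cKO and 40.0 CPM in control other nuclei. For Bcam, a laminin receptor of the immunoglobulin family, they had 1187 CPM in DNp63cKO and 943 CPM in control ureters, against 285 CPM in DNp63cKO and 370 CPM in control other nuclei. In both genes the level in the other nuclei was lower in the DNp63cKO library, whereas the basal level was higher in DNp63cKO by log2 0.36 (-0.37 to 1.08) for Cdh3 and 0.33 (0.12 to 0.54) for Bcam, which was at -0.032 with 5 or more gate UMIs.

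Most superficial genes were lower in basal nuclei. The 13 genes of the superficial list had a median log2 of basal over other nuclei of -1.21 in the DNp63cKO library, over 12 measured genes, and -0.65 in the control library. In DNp63cKO 9 were lower and 3 higher, and in control ureters 10 were lower and 3 higher. Of all genes 51.5% were higher in DNp63cKO and 53.4% in control ureters. Krt20 was not lower in DNp63cKO: at 1000 UMIs per nucleus 31.1% of basal and 21.8% of other nuclei had its UMI. In control ureters the shares were 29.7% and 32.4%. Upk1a, which encodes uroplakin Ia, had 746 CPM in basal and 3126 CPM in other DNp63cKO nuclei, and 1119 CPM in basal and 2465 CPM in other control nuclei. Acer2, a ceramidase outside this list and among the lowest basal over other ratios, had 756 CPM in basal and 2655 CPM in other DNp63cKO nuclei. In control ureters it had 961 CPM in basal and 2473 CPM in other nuclei.

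Krt5 and Upk1a mark the basal and the superficial end of the tissue, and their promoters are shown for comparison of their sequence. Each runs from 250 bases before to 50 bases after the RefSeq transcript start, 5′ to 3′ on the minus strand of build GRCm38.p6, at chr15:101712856-101713155 for Krt5 and chr7:30612685-30612984 for Upk1a. Capitals mark CATG, which is its own reverse complement and forms each core of the paired site that p53 family proteins bind.
Krt5: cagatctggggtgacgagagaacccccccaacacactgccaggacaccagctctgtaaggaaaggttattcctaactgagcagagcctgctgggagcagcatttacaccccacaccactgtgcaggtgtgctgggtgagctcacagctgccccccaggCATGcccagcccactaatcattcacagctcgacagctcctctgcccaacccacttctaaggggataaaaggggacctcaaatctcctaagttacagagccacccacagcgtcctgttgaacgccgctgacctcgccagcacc
Upk1a: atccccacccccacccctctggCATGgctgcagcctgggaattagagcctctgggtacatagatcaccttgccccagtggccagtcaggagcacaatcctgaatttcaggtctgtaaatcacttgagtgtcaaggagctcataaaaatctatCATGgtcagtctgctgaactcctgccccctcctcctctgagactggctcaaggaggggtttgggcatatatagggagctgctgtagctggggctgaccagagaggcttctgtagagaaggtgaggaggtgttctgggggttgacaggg
The Krt5 promoter held CATG 1 time and the Upk1a promoter 2 times, and 61.1% of 32851 RefSeq promoters of this length held it at least 1 time. The pair CATGNNNNNNCATG, searched on both strands with overlaps allowed, was in neither and in 0.712% of all promoters. Of the 12 basal cell genes 7 had a promoter in the table, 1 of these with CATG and 0 with the pair, and the 1 with CATG, that of Krt14, starts inside the GENCODE M21 gene and may not be its promoter. Of the 12 hemidesmosome genes 8 had 11 promoters, 6 with CATG and 0 with the pair.

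Within basal nuclei, DNp63cKO was set against control over 8986 genes with 20 or more UMIs in the 2 libraries together. The log2 ratio of CPM + 5 had a median of -0.03, with quartiles at -0.38 and 0.32, and 47.7% of the genes were higher in DNp63cKO by any amount. Genes 2-fold or more higher in DNp63cKO made up 2.76% and those 2-fold or more lower 5.78%. These shares are the background for the counts of list members in basal nuclei below. In the other non-cycling epithelial nuclei, with more UMIs, 1.33% of 12575 genes were 2-fold or more higher and 1.64% 2-fold or more lower, and 48.3% were higher by any amount.

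Krt14, the type I keratin that pairs with Krt5 in basal layers, had the highest ratio of any gene that could be named. The 139 DNp63cKO basal nuclei held 104 Krt14 UMIs and the 429 control basal nuclei 28, which are 488 CPM (399 to 591) in DNp63cKO and 34.6 CPM (23.0 to 50.03) in control ureters, a log2 ratio of 3.64 (3.20 to 4.47). Krt14 lies on chromosome 11 at 100203162 to 100207548 on the minus strand (GENCODE M21, GRCm38). A Krt14 UMI was present in 51 DNp63cKO and 20 control basal nuclei, so the difference was not carried by a few nuclei.

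Krt14 was also higher in the other non-cycling nuclei, at 44.9 CPM in DNp63cKO against 9.86 CPM in control ureters, and in mesenchymal nuclei, at 24.6 CPM in DNp63cKO against 8.37 CPM in control ureters. At 1000 UMIs per nucleus, 28.3% of 106 DNp63cKO basal nuclei (19.98% to 37.9%) and 2.80% of 357 control basal nuclei (1.35% to 5.09%) had a Krt14 UMI, 33 shallower DNp63cKO nuclei being left out. The share in mesenchymal nuclei was 2.02% in DNp63cKO and 0.456% in control ureters. Without thinning it was 36.7% of DNp63cKO and 4.66% of control basal nuclei, against 2.80% of DNp63cKO and 0.590% of control mesenchymal nuclei. The control share in basal nuclei was thus above its mesenchymal level but small.

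Krt14 and Krt5 UMIs were found together. Of the DNp63cKO basal nuclei with a Krt5 UMI 46.2% had a Krt14 UMI (36 of 78), and of those without one 24.6% (15 of 61). In control ureters the shares were 9.14% (18 of 197) and 0.862% (2 of 232). Among control nuclei with a UMI of Krt15, another type I keratin of basal cells, 7 of 33 had a Krt14 UMI, against 3.28% of those without.

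Krt15 went the other way. It had 5 UMIs in DNp63cKO and 51 in control basal nuclei, 23.5 CPM in DNp63cKO and 63.1 CPM in control ureters, a log2 ratio of -1.26 (-3.11 to -0.11). Of the 12 basal cell genes 8 were measured, 4 higher and 4 lower in DNp63cKO, with a median log2 of 0.15. Past 2-fold were 1 gene upward, Krt14, and 1 downward, Krt15, against 2.76% and 5.78% of all genes. The same list in other nuclei had 2 genes higher and 7 lower, with a median of -0.59. Aqp3, a water and glycerol channel of basal urothelium, was lower in DNp63cKO by log2 -0.49 (-0.76 to -0.23), while Cd44, a hyaluronan receptor, was at 127 CPM in DNp63cKO against 129 CPM in control basal nuclei. Pdpn, a mucin-type membrane glycoprotein, was at 136 CPM in DNp63cKO against 100 CPM in control basal nuclei. Krt17, Ngfr, Snai2 and Sox15 were not measured.

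Trp63 itself had 39 UMIs in DNp63cKO and 267 in control basal nuclei, or 183 CPM (130 to 250) in DNp63cKO and 330 CPM (292 to 372) in control ureters, a log2 ratio of -0.83 (-1.37 to -0.36). The gene-level count adds all forms of Trp63 and shows neither which exons the reads came from nor the deletion, so it does not check the labels. In the other nuclei the gene had 133 CPM in DNp63cKO and 173 CPM in control ureters, and in mesenchymal nuclei 37.1 CPM in DNp63cKO and 69.7 CPM in control ureters. At 1000 UMIs per nucleus 17.0% of DNp63cKO and 28.6% of control basal nuclei had a Trp63 UMI, against 3.43% of DNp63cKO and 6.95% of control mesenchymal nuclei. The basal DNp63cKO share was therefore above its mesenchymal level. The gene spans 25683763 to 25892102 on the plus strand of chromosome 16.

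**Figure D2:**
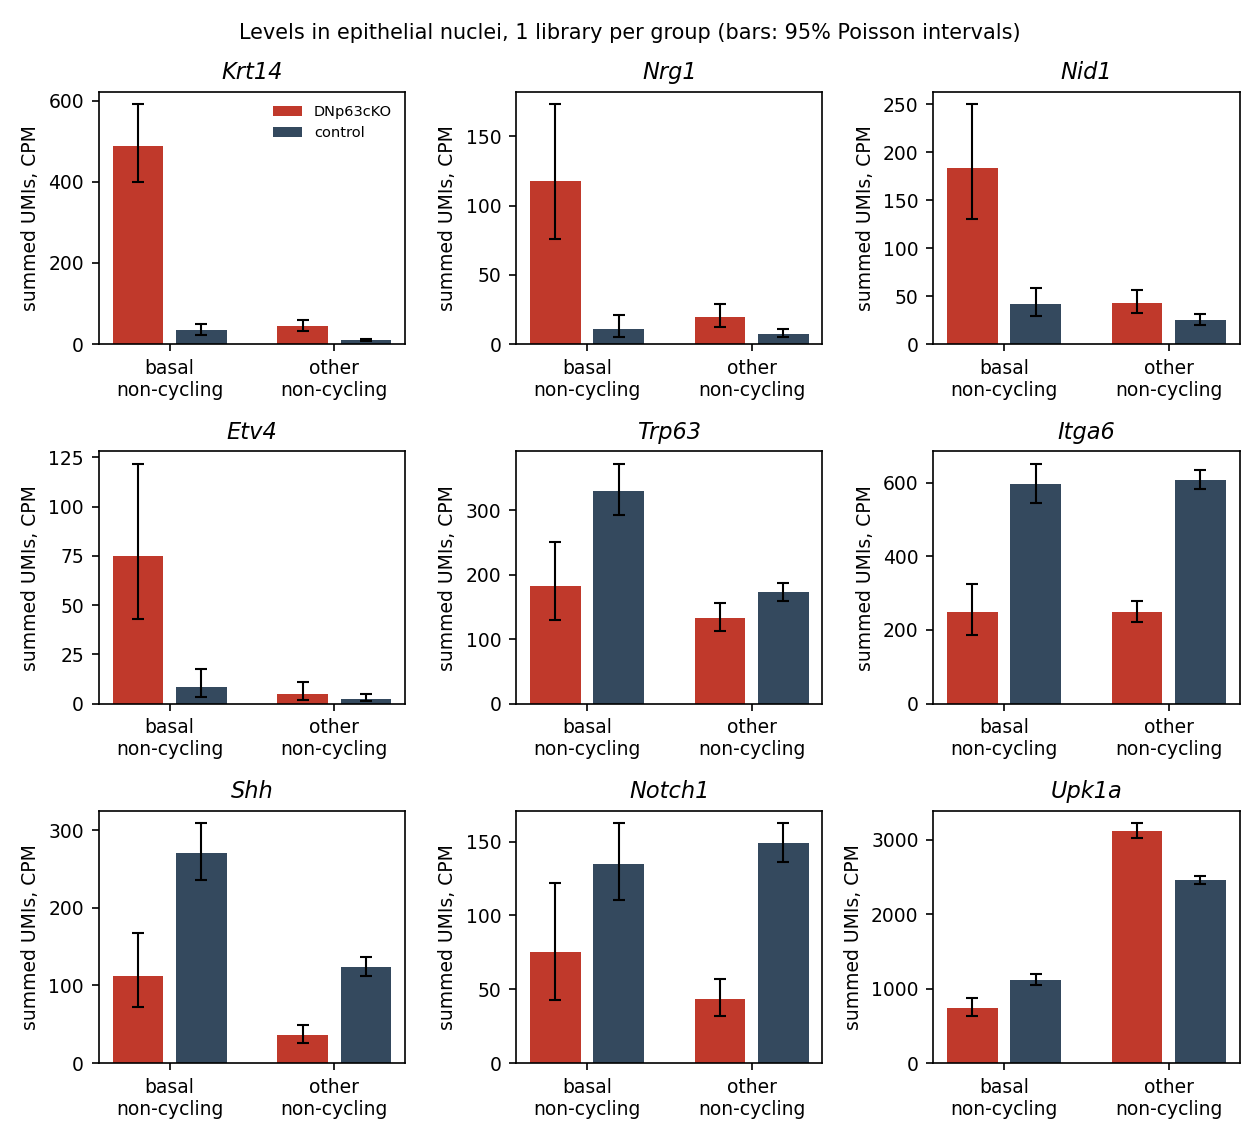
Levels of 9 genes in basal and in other non-cycling epithelial nuclei, as CPM over the summed UMIs of 1 library per group, DNp63cKO in red and control in dark blue, with 95% Poisson intervals as bars and axes from 0. Krt14, Nrg1, Nid1 and Etv4 are higher in DNp63cKO basal nuclei, and Trp63, Itga6 and Shh lower, with Itga6 at a like level in basal and other nuclei of each library.

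Sorting the non-cycling epithelial nuclei by their number of gate UMIs shows how these genes vary along the axis the gate used. Krt14 in DNp63cKO nuclei was 24.98 CPM with 0 gate UMIs, 169 CPM with 2, just outside the gate, 304 CPM with 3, just inside it, 534 CPM with 4 to 5, and 605 CPM with 6 or more. In control nuclei it was 5.12 CPM with 0, 19.3 CPM with 2, 29.96 CPM with 3, 21.4 CPM with 4 to 5 and 66.2 CPM with 6 or more, the last 3 resting on 9, 7 and 12 UMIs. The DNp63cKO value was higher at each step than at the one before it, and exceeded the control value at each step. Within the gate the intervals overlapped one another in each library, so neither library shows a resolved rise there.

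Trp63 behaved otherwise. In control nuclei it was 156 CPM with 0 gate UMIs, 219 CPM with 2, 293 CPM with 3 and 403 CPM with 6 or more. In DNp63cKO nuclei it was 126 CPM with 0, 201 CPM with 2, 160 CPM with 3 and 181 CPM with 6 or more, and the intervals of these DNp63cKO values overlap one another. Upk1a declined along the same axis in both libraries, to 469 CPM in DNp63cKO and 601 CPM in control nuclei with 6 or more gate UMIs.

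**Figure D3:**
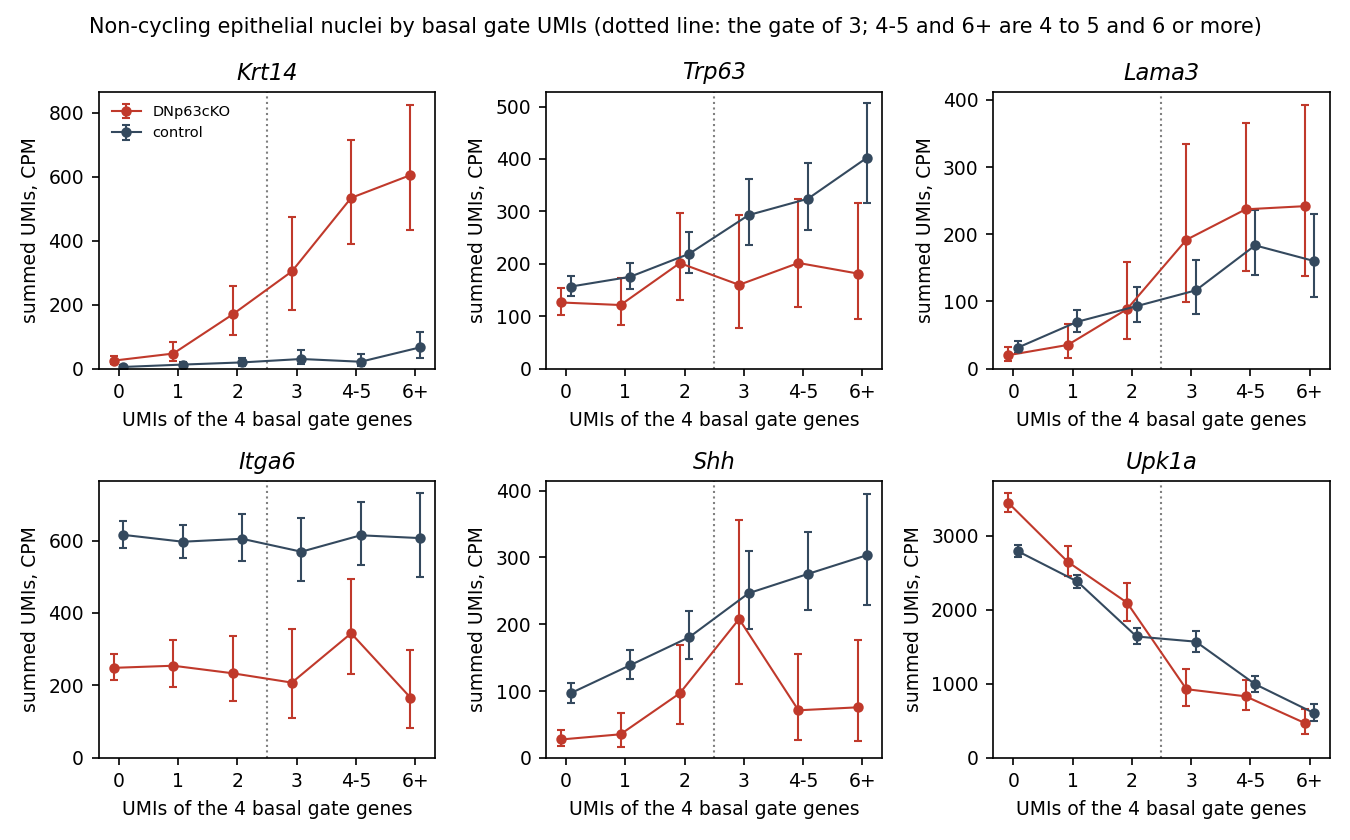
CPM of 6 genes against the number of UMIs of the 4 gate genes per nucleus in non-cycling epithelial nuclei, DNp63cKO in red and control in dark blue, with 95% Poisson intervals and a dotted line at the gate. Krt14 lies at 605 CPM in DNp63cKO nuclei against 66.2 CPM in control nuclei with 6 or more gate UMIs, whereas Itga6 lies between 166 and 344 CPM in DNp63cKO nuclei and between 569 and 616 CPM in control nuclei.

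The parts of the hemidesmosome did not move as a block. Itga6, the integrin α6 that pairs with Itgb4, had 53 UMIs in DNp63cKO and 482 in control basal nuclei, 249 CPM (186 to 325) in DNp63cKO and 596 CPM (544 to 652) in control ureters, a log2 ratio of -1.24 (-1.70 to -0.85). Its ratio was -1.28 in the other nuclei, where the levels were 248 CPM in DNp63cKO and 608 CPM in control ureters, so the ratio was much the same on both sides of the basal gate. At 1000 UMIs per nucleus a UMI of Itga6 was in 17.0% of DNp63cKO and 40.1% of control basal nuclei, and in 8.19% of DNp63cKO and 15.4% of control mesenchymal nuclei.

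Other members had ratios nearer 0 or above it. Itgb4, the β4 partner of Itga6, is a gate gene, so the gate bears on its level in basal and in other nuclei alike. Its log2 ratio in the other nuclei, -0.98 (-1.50 to -0.64), is therefore a description and supports nothing. Itgb1, the common β1 integrin chain, was at 619 CPM in DNp63cKO against 425 CPM in control basal nuclei (log2 0.54, 0.24 to 0.84). It is also high in mesenchymal nuclei, at 459 CPM in DNp63cKO against 577 CPM in control ureters. Dst and Plec, plakins that tie keratin to the hemidesmosome, had log2 ratios of 0.09 and 0.21.

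Of 10 measured genes of the hemidesmosome list 7 were higher and 3 lower in DNp63cKO, with a median log2 of 0.15, 0 past 2-fold upward and 1 past it downward. The shares over all genes were 47.7% higher, 2.76% past 2-fold upward and 5.78% past it downward. Col17a1, a transmembrane collagen of hemidesmosomes, had 0 UMIs in DNp63cKO and 10 in control basal nuclei and was not counted as measured. Lama3 was at 225 CPM in DNp63cKO against 153 CPM in control basal nuclei (log2 0.54), and at 30.5 CPM in DNp63cKO against 54.0 CPM in control other nuclei (log2 -0.73).

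Basement membrane genes were mostly higher in DNp63cKO basal nuclei. Of 14 measured genes 11 were higher and 3 lower, the list having a median log2 of 0.48, 4 past 2-fold upward and 1 past it downward. Over all genes 47.7% were higher, 2.76% past 2-fold upward and 5.78% past it downward. In the other nuclei the median of the list was 0.03. Nid1, the nidogen that links laminin to collagen IV, was at 183 CPM (130 to 250) in DNp63cKO against 42.0 CPM (29.1 to 58.7) in control basal nuclei, a log2 ratio of 2.00 (1.42 to 2.83). Hspg2, the heparan sulfate proteoglycan perlecan, was at 113 CPM in DNp63cKO against 19.8 CPM in control basal nuclei (log2 2.25, 1.54 to 3.52). Frem2 and Fras1, which form a complex below embryonic epithelia, had log2 ratios of 1.29 (0.83 to 1.82) and 0.72 (0.43 to 1.03). Col4a2, an α chain of collagen IV, was at 103 CPM in DNp63cKO against 39.6 CPM in control basal nuclei. Col4a6, an α chain found in epithelial basement membranes, was lower, at 46.9 CPM in DNp63cKO against 130 CPM in control basal nuclei (log2 -1.38, -2.57 to -0.53).

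Several of these genes are high in mesenchymal nuclei. Nid1 was at 181 CPM in DNp63cKO against 219 CPM in control mesenchymal nuclei, Hspg2 at 200 CPM in DNp63cKO against 223 CPM in control ones, and Col4a2 at 241 CPM in DNp63cKO against 366 CPM in control ones. The fibroblast markers of basal nuclei were higher in DNp63cKO too, as given above. In the 55 DNp63cKO and 180 control basal nuclei with no UMI of the 7 mesenchymal and endothelial genes, the median of the list was 0.32 and the ratio of Nid1 2.54. Fras1, Frem2 and Agrn were above their own mesenchymal levels in basal nuclei of both libraries. Agrn, the proteoglycan agrin, was at 596 CPM in DNp63cKO against 446 CPM in control basal nuclei (log2 0.41, 0.11 to 0.71), against -0.22 in the other nuclei.

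Of 14 focal adhesion and cortical actin genes 12 were higher and 2 lower in DNp63cKO basal nuclei, with a median log2 of 0.30 against 0.05 in the other nuclei. Actn1, an actin crosslinker, was at 108 CPM in DNp63cKO against 39.6 CPM in control basal nuclei, and Flna, which links actin to membranes, at 619 CPM in DNp63cKO against 375 CPM in control basal nuclei. Both are higher still in mesenchymal nuclei, with Flna at 1748 CPM in DNp63cKO against 2001 CPM in control ones. The part of mesenchymal RNA in these ratios was not tested beyond the nuclei without mesenchymal UMIs, where the median was 0.25.

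Desmosome and tight junction genes leaned lower, set against the 47.7% of all genes that were higher in DNp63cKO basal nuclei. Of 8 measured desmosome genes 2 were higher and 6 lower in DNp63cKO basal nuclei (median log2 -0.22), and in the other nuclei 0 of 9 were higher (median -0.54). Dsg2, a desmosomal cadherin, was at 253 CPM in DNp63cKO against 356 CPM in control basal nuclei (log2 -0.48, -0.94 to -0.07), and Jup, its plakoglobin partner, at 202 CPM in DNp63cKO against 284 CPM in control basal nuclei. Dsp, Dsc2, Perp and Pkp4 had ratios between -0.58 and -0.16, and Pkp2 and Pkp3, plakophilins of the plaque, of 0.42 and 0.26.

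Among 9 adherens junction genes 4 were higher and 5 lower, a share near that of all genes, of which 47.7% were higher with a median log2 of -0.03. Nectin1, an adhesion molecule of the immunoglobulin family, was at 117 CPM in DNp63cKO against 265 CPM in control basal nuclei (log2 -1.14, -1.83 to -0.57). Cdh20, a type II cadherin, had 0 UMIs in DNp63cKO and 21 in control basal nuclei, at least 1.84-fold lower when 3 UMIs are allowed for a count of 0. The median of the list, -0.03, was the same with Cdh20 at that bound.

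Of 12 tight junction genes 2 were higher and 10 lower, the list having a median of -0.15. Ocln, the occludin of tight junctions, was at 192 CPM in DNp63cKO against 113 CPM in control basal nuclei (log2 0.75, 0.21 to 1.32), whereas Pard3, a polarity scaffold, was at 249 CPM in DNp63cKO against 368 CPM in control basal nuclei.

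Genes of stratified envelopes were few and mostly lower. Lypd3, a surface protein of suprabasal layers, had 0 UMIs in DNp63cKO and 42 in control basal nuclei, at least 3.69-fold lower, and 11.01 CPM in DNp63cKO and 67.9 CPM in control other nuclei. Ivl, the envelope protein involucrin, was at 46.9 CPM in DNp63cKO against 115 CPM in control basal nuclei (log2 -1.21), and Evpl, the envelope plakin envoplakin, at 164 CPM in DNp63cKO against 303 CPM in control basal nuclei (log2 -0.86, -1.44 to -0.37). Sprr1a, a small proline-rich envelope protein, was higher, at 7715 CPM in DNp63cKO against 4837 CPM in control basal nuclei, and it was also high in mesenchymal nuclei, at 1911 CPM in DNp63cKO against 1257 CPM in control ones. Only 5 of 15 genes were measured, and their median of -0.86 was the same with Lypd3 at its bound.

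Uroplakin RNA in basal nuclei lay nearer to the mesenchymal level in DNp63cKO. UMIs of Upk1a, Upk1b, Upk2 and Upk3a together were 0.453% of the UMIs of DNp63cKO and 0.615% of those of control basal nuclei, against 1.25% of DNp63cKO and 1.12% of control UMIs in other nuclei and 0.226% of DNp63cKO and 0.195% of control UMIs in mesenchymal nuclei. Upk1a had a log2 ratio of -0.58 (-0.84 to -0.34) in basal and 0.34 in other nuclei, and Upk3a, the partner of uroplakin Ib, of -0.58 (-0.76 to -0.40) in basal and 0.12 in other nuclei. At 1000 UMIs per nucleus 35.8% of DNp63cKO and 44.8% of control basal nuclei had an Upk1a UMI, but so did 37.7% of DNp63cKO and 27.1% of control mesenchymal nuclei, which puts the DNp63cKO basal share at its background at that depth. At 1500 UMIs, with 57 DNp63cKO and 235 control basal nuclei left, the share was 66.7% in DNp63cKO and 57.9% in control basal nuclei, against 44.1% of DNp63cKO and 36.0% of control mesenchymal nuclei. Without thinning it was 47.5% of DNp63cKO and 49.9% of control basal nuclei, against 38.9% of DNp63cKO and 29.4% of control mesenchymal nuclei. The order of the libraries thus turned with depth, and none is read from these shares. Without thinning, 4 or more UMIs of the 4 uroplakin genes together were in 61.2% of DNp63cKO and 64.8% of control basal nuclei. In other nuclei the shares were 86.2% in DNp63cKO and 70.6% in control ureters, and in mesenchymal nuclei 26.4% and 15.7%. Many nuclei past the basal gate thus held uroplakin RNA.

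Over the superficial list 5 genes were higher and 8 lower in basal nuclei (median log2 -0.21, 0 past 2-fold either way), and in other nuclei 11 were higher and 2 lower (list median 0.20). Of all genes 47.7% were higher in basal nuclei and 48.3% in other nuclei, with 2.76% past 2-fold upward and 5.78% past it downward in basal nuclei. Upk2, a further uroplakin, was at 291 CPM in DNp63cKO against 283 CPM in control basal nuclei, and Krt20, the keratin of superficial cells, at 314 CPM in DNp63cKO against 355 CPM in control basal nuclei. The direction of this list depends on the gate: with 2 or more gate UMIs its median was 0.044, and with the gate set on thinned nuclei Upk1a had a ratio of 0.15. Krt7, a keratin of simple epithelia, was lower in DNp63cKO in basal nuclei (log2 -0.51, -0.73 to -0.30) and in other nuclei (-0.78), while Krt8 was at 2023 CPM in DNp63cKO against 1982 CPM in control basal nuclei and Krt19 at 2520 CPM in DNp63cKO against 2906 CPM in control basal nuclei.

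Transcription factors of the urothelium were lower in DNp63cKO basal nuclei in 12 of 13 measured cases, with a median log2 of -0.42, and in other nuclei in 10 of 14, with a median of -0.16. Grhl3, needed for terminal differentiation of urothelium, was at 98.6 CPM in DNp63cKO against 218 CPM in control basal nuclei (log2 -1.10, -1.87 to -0.49). Pparg, a nuclear receptor that drives urothelial differentiation, was at 540 CPM in DNp63cKO against 723 CPM in control basal nuclei (log2 -0.42, -0.72 to -0.13). Foxa1 and Gata3, which act with it, had log2 ratios of -0.55 (-1.12 to -0.05) and -0.34 (-0.63 to -0.06). Tfap2c and Klf4, factors of stratified epithelia, had log2 ratios of -1.05 and -0.86, and Sox4 was the gene that was higher, by 0.18.

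Of 14 genes on a list of p63 targets from stratified epithelia, Krt14 among them, 7 were higher and 7 lower in basal nuclei (median log2 -0.08), and 3 of 15 were higher in other nuclei (median -0.64). Zfp750, a factor of epidermal differentiation, had 1 UMI in DNp63cKO and 29 in control basal nuclei (log2 -2.08). Satb1, a chromatin organizer, had a ratio of -1.23. Ripk4, a kinase of epidermal differentiation, was at 192 CPM in DNp63cKO against 265 CPM in control basal nuclei (log2 -0.45), with -1.26 in the other nuclei. Of 10 measured p53 targets 8 were lower, with a median of -0.31, and Cdkn1a, the cyclin-dependent kinase inhibitor p21, was at 131 CPM in DNp63cKO against 203 CPM in control basal nuclei (log2 -0.61, -1.26 to -0.04).

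**Figure D4:**
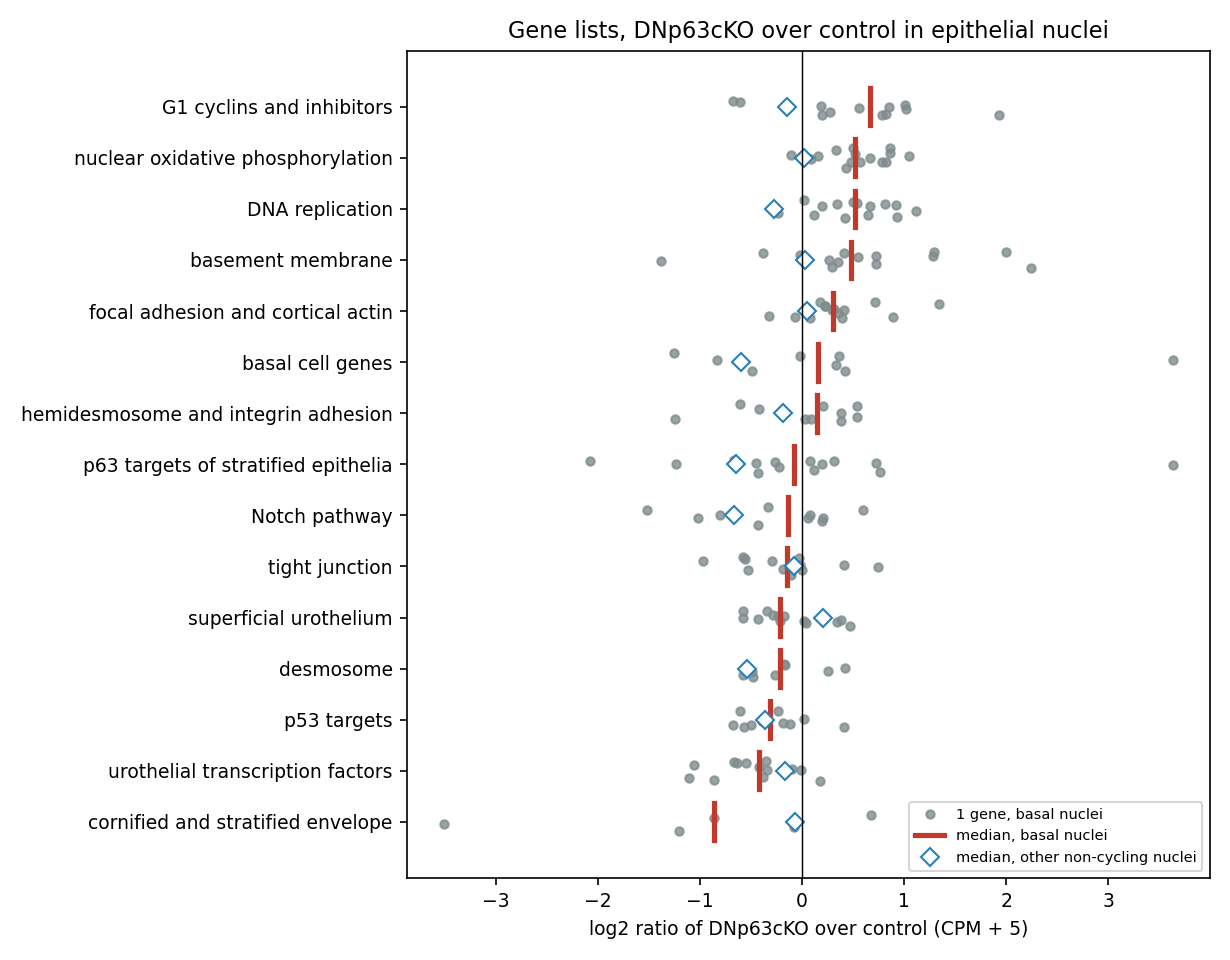
log2 ratio of DNp63cKO over control (CPM + 5) for the measured genes of 15 lists, each dot 1 gene in basal nuclei, red bars the median over basal nuclei and open diamonds the median over other non-cycling epithelial nuclei. The medians in basal nuclei run between -0.86 for the cornified and stratified envelope and 0.67 for the G1 cyclins and inhibitors.

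Signals sent and received by basal nuclei differed gene by gene. Shh, the hedgehog ligand of the urothelium, had 24 UMIs in DNp63cKO and 219 in control basal nuclei, 113 CPM (72.2 to 168) in DNp63cKO and 271 CPM (236 to 309) in control ureters, a log2 ratio of -1.23 (-1.94 to -0.65). The other nuclei had 36.4 CPM in DNp63cKO and 124 CPM in control ureters (log2 -1.64). At 1000 UMIs per nucleus a UMI of Shh was in 9.43% of DNp63cKO and 21.3% of control basal nuclei and in 0.792% of DNp63cKO and 3.99% of control mesenchymal nuclei. In both libraries Shh was therefore above its mesenchymal level and higher in basal than in other nuclei, by log2 1.51 in DNp63cKO and 1.09 in control ureters. It did not rise steadily with gate UMIs in DNp63cKO nuclei. There it was 96.6 CPM with 2, 208 CPM with 3, 71.1 CPM with 4 to 5 and 75.6 CPM with 6 or more, with overlapping intervals. Control nuclei had 181 CPM with 2, 246 CPM with 3, 275 CPM with 4 to 5 and 303 CPM with 6 or more. With 3 gate UMIs the intervals of the 2 libraries overlapped. Unlike Krt14, its UMIs did not go with those of Krt5: of DNp63cKO basal nuclei with and without a Krt5 UMI 12.8% and 11.5% had one, and of control basal nuclei 33.5% and 31.5%.

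Nrg1, a ligand of ERBB receptors, was among the highest ratios, with 25 UMIs in DNp63cKO and 9 in control basal nuclei, 117 CPM (75.9 to 173) in DNp63cKO and 11.1 CPM (5.09 to 21.1) in control ureters (log2 2.92, 2.25 to 4.68). In mesenchymal nuclei it was at 54.3 CPM in DNp63cKO against 25.9 CPM in control ureters. Hbegf, an EGF receptor ligand, Pdgfa and Wnt10a, a WNT ligand, had log2 ratios of 0.97 (0.11 to 1.96), 0.99 (0.39 to 1.66) and 1.17 (0.15 to 2.47). Wnt5a, a ligand of non-canonical WNT signalling, was lower, at 136 CPM in DNp63cKO against 208 CPM in control basal nuclei (log2 -0.59, -1.23 to -0.04). Of 13 measured ligands 5 were higher and 8 lower, the list having a median of -0.18.

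Receptors had 5 of 9 measured genes higher, among them Igf1r, the receptor of insulin-like growth factors, at 343 CPM in DNp63cKO against 230 CPM in control basal nuclei (log2 0.56, 0.16 to 0.97), against -0.63 in the other nuclei. In mesenchymal nuclei Igf1r was at 443 CPM in DNp63cKO against 460 CPM in control ureters.

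In the Notch pathway 5 of 10 measured genes were higher and 5 lower in basal nuclei (median log2 -0.14), and 2 of 10 were higher in other nuclei (median -0.67). Notch1, a receptor, was at 75.1 CPM in DNp63cKO against 135 CPM in control basal nuclei (log2 -0.80, -1.70 to -0.08), and at 43.2 CPM in DNp63cKO against 149 CPM in control other nuclei (log2 -1.67). Nrarp, a Notch target that dampens the pathway, had log2 ratios of -1.52 in basal and -1.59 in other nuclei. Hes1, a repressor that Notch and other signals turn on, was at 460 CPM in DNp63cKO against 402 CPM in control basal nuclei. The basal ligand Jag2 differed by log2 0.08 (-0.33 to 0.47).

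Etv4 and Etv5, transcription factors that answer FGF and RET signals in the nephric duct, were higher. Etv4 had 16 UMIs in DNp63cKO and 7 in control basal nuclei, 75.1 CPM (42.9 to 122) in DNp63cKO and 8.65 CPM (3.48 to 17.8) in control ureters (log2 2.55, 1.76 to 4.64). Etv5 was at 93.9 CPM in DNp63cKO against 51.9 CPM in control basal nuclei, and at 13.6 CPM in DNp63cKO against 26.1 CPM in control other nuclei. Dusp6, a phosphatase of ERK that the same signals turn on, was at 113 CPM in DNp63cKO against 33.4 CPM in control basal nuclei (log2 1.62, 0.90 to 2.60), and had a ratio of -0.63 in the other nuclei. The nephric and collecting duct list had 5 of 7 measured genes higher, with a median of 0.50 that was -0.17 with 5 or more gate UMIs and -0.30 in nuclei without mesenchymal UMIs. In the other nuclei 8 of 9 measured genes of this list were higher, with a median of 0.48, so the list was not higher in basal nuclei alone. Over all genes 47.7% were higher in basal and 48.3% in other nuclei.

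G1 cyclins and inhibitors, a list that also holds brakes on the cell cycle such as Cdkn1a, were mostly higher in DNp63cKO basal nuclei. Of 12 measured G1 genes 10 were higher and 2 lower (list median log2 0.67, 3 past 2-fold upward). Over all genes 47.7% were higher and 2.76% past 2-fold upward. In other nuclei 5 of 14 G1 genes were higher (median -0.15). Ccnd1, cyclin D1, had 20 UMIs in DNp63cKO and 17 in control basal nuclei, 93.9 CPM in DNp63cKO and 21.02 CPM in control ureters (log2 1.93, 1.15 to 3.18). Ccnd2, cyclin D2, was at 1131 CPM in DNp63cKO against 931 CPM in control basal nuclei, and at 321 CPM in DNp63cKO against 964 CPM in control other nuclei. Control nuclei thus held Ccnd2 at a like level in and out of the basal gate, and DNp63cKO nuclei 1.80 higher on the log2 scale in it. Cdk4, a kinase that cyclin D binds, was at 216 CPM in DNp63cKO against 117 CPM in control basal nuclei, and Myc, a growth factor-induced transcription factor, at 113 CPM in DNp63cKO against 53.2 CPM in control basal nuclei.

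DNA replication genes were higher as well. Of 14 measured genes 13 were higher and 1 lower in DNp63cKO basal nuclei (median log2 0.52, 1 past 2-fold), whereas in other nuclei 3 of 16 were higher (median -0.27). Over all genes 47.7% were higher in basal nuclei, 2.76% past 2-fold, and 48.3% in other nuclei. Mcm4, a subunit of the replicative helicase, was at 188 CPM in DNp63cKO against 84.1 CPM in control basal nuclei (log2 1.11, 0.56 to 1.74), and Pcna, the sliding clamp, at 192 CPM in DNp63cKO against 131 CPM in control basal nuclei. The gate allowed 1 cycling gene per nucleus, and Mki67, a proliferation marker, was at 93.9 CPM in DNp63cKO against 43.3 CPM in control basal nuclei. Among the 108 DNp63cKO and 335 control basal nuclei with no UMI of the 5 cycling genes, the medians were 0.53 for DNA replication and 0.50 for G1. With a gate of 2 or more UMIs they were 0.30 for DNA replication and 0.31 for G1.

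Nuclear genes of oxidative phosphorylation were higher in 14 of 15 measured cases in basal nuclei (median log2 0.52, 1 past 2-fold) and in 9 of 15 in other nuclei (median 0.02). Among all genes 47.7% were higher in basal nuclei, 2.76% past 2-fold, and 48.3% in other nuclei. Ndufa4, a subunit of the respiratory chain, was at 253 CPM in DNp63cKO against 120 CPM in control basal nuclei (log2 1.05, 0.57 to 1.57), and Cox4i1, a subunit of cytochrome c oxidase, at 1122 CPM in DNp63cKO against 831 CPM in control basal nuclei.

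**Figure D5:**
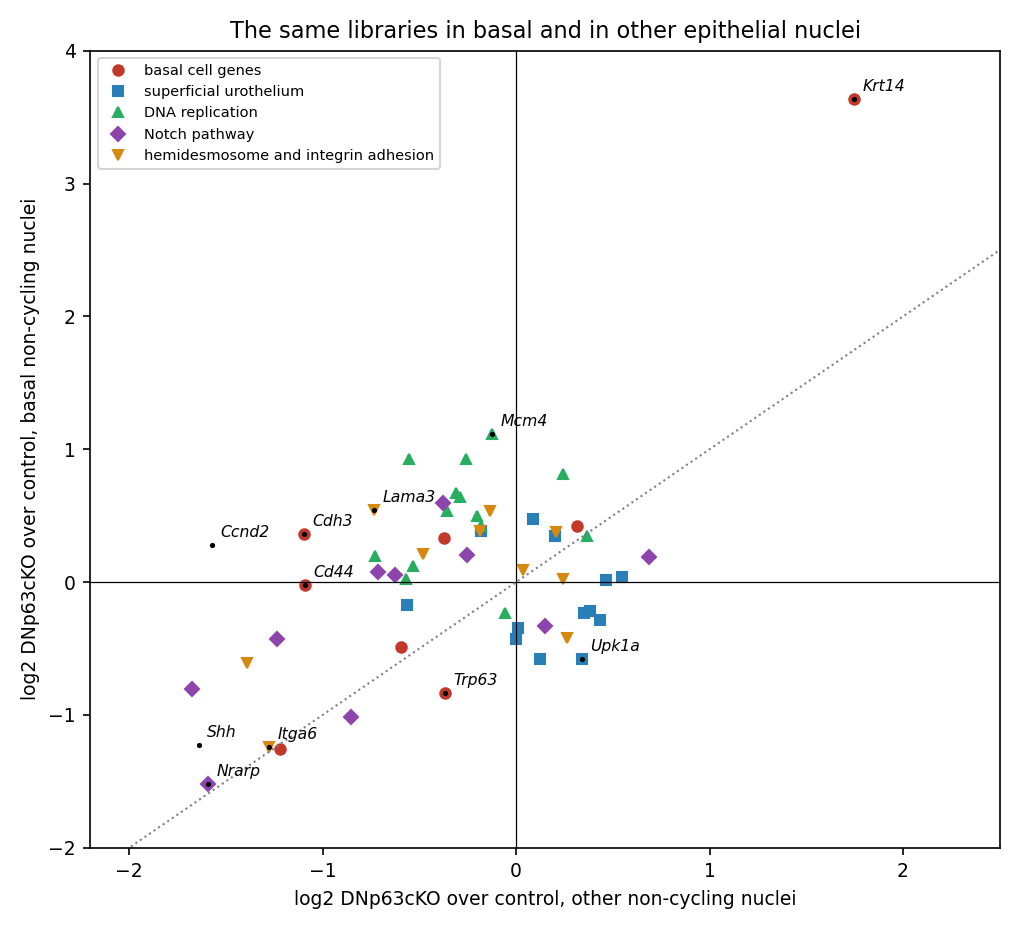
Each point is 1 gene of 5 lists or 1 labelled gene, with the log2 ratio of DNp63cKO over control in other non-cycling epithelial nuclei on the horizontal axis and in basal non-cycling nuclei on the vertical axis, and a dotted line where they are equal. Krt14 lies at 1.75 and 3.64, Itga6 lies close to the line, and most DNA replication genes lie above 0 on the vertical axis and below 0 on the horizontal one.

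The remaining genes at the ends of the range were of mixed kinds. Beside Krt14, Nrg1 and Nid1, the highest ratios were those of Efemp1, a fibulin of the matrix (160 CPM in DNp63cKO and 24.7 CPM in control basal nuclei), Sema3e, a secreted semaphorin (202 CPM in DNp63cKO and 37.1 CPM in control), and Fmod, the proteoglycan fibromodulin (131 CPM in DNp63cKO and 27.2 CPM in control). Msln, the surface protein mesothelin, was at 432 CPM in DNp63cKO against 142 CPM in control basal nuclei, with a still higher ratio in the other nuclei (log2 2.83). Gsdmc2, a gasdermin, was at 591 CPM in DNp63cKO against 143 CPM in control basal nuclei, but 35 of its 126 DNp63cKO UMIs came from 1 nucleus, and Gsdmc2 and Gsdmc3 are near-identical copies whose reads may be split.

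At the low end stood Cyp4f15, a cytochrome P450 enzyme, with 0 UMIs in DNp63cKO and 57 in control basal nuclei, at least 5.01-fold lower. Ankfn1 had 6 UMIs in DNp63cKO and 243 in control basal nuclei, 28.2 CPM in DNp63cKO and 300.4 CPM in control ureters (log2 -3.20, -4.88 to -2.27). Both were lower in the other nuclei too, by log2 -1.71 for Cyp4f15 and -1.80 for Ankfn1. Dhcr7, the last enzyme of cholesterol synthesis, was at 14.1 CPM in DNp63cKO against 58.1 CPM in control basal nuclei.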

How the data were processed

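The deposited matrices hold whole-number UMI counts for each gene in each nucleus, with no normalization, from 1 library per genotype made with the Singleron GEXSCOPE single nucleus kit, per the labels' protocols. Per the submitters' processing notes, STARsolo of STAR 2.7.11a, build mm10 and Seurat 4.0.5 were used, with roles, filters and strand handling not given in the sources used here. Both tables held 32589 genes, of which 99.79% of IDs matched GENCODE M21, and no nucleus under 500 UMIs.

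Gates, sums and ratios were computed with Python 3.11.15, numpy 2.4.6, pandas 2.3.3 and scipy 1.17.1, and figures drawn with matplotlib 3.10.9. UMIs were summed over the nuclei of a class and divided by their total (CPM), and ratios were the log2 of CPM + 5. A gene was measured with 20 or more UMIs over both libraries. Intervals were exact Poisson for CPM, conditional binomial for ratios and Clopper-Pearson for shares, and 3 UMIs stood for a count of 0. Nuclei were thinned to 1000 UMIs with a fixed seed for shares, and shallower nuclei were left out of these. Mesenchymal nuclei had a UMI of 2 or more of Myh11, Myocd, Col1a2, Col3a1 and Pdgfra and fewer than 3 epithelial genes. Scrublet in scanpy 1.11.5 marked 0 nuclei at its automatic threshold in either library and so did not work, and no doublets were removed except in an alternative. The computation was tested on simulated counts with known changes.

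Named genes were Trp63, the gate genes, the 15 highest and 15 lowest ratios among genes with 50 or more CPM in a library, 30 or more UMIs and at least the mesenchymal level in the library where they were higher, the 15 highest and 10 lowest basal over other nuclei, and up to 6 members of each of 26 gene lists. All members of the basal, hemidesmosome, superficial, desmosome and simple keratin lists could be named. Mitochondrial, haemoglobin, Xist, Y-linked and unnamed genes were left out of the ranked sets. The nuclei, lists and rules were chosen with earlier results of these data known. Promoter sequences are RefSeq's for GRCm38.p6. The values of 1 gene of the hemidesmosome list are not reported here.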

Additional observations from a re-analysis of the deposited data

Results flagged for a closer look

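Of 310 genes of the lists and named sets that could be compared, 12 had log2 ratios of DNp63cKO over control with opposite signs in basal and in other non-cycling epithelial nuclei, each with a counting interval on 1 side of 0. The difference between the classes was not tested, since each class has 1 library per genotype. The 4 gate genes, which set the classes, were left out, and each had a ratio above 0 in basal and below 0 in other nuclei. Krt5 had 0.43 and -0.65, Lamb3 0.32 and -0.58, Itgb4 0.21 and -0.98, and Itga3 0.71 and -0.32. Genes whose levels go with the gate genes may share this split, which was not tested. The share of opposite signs over all genes was not counted.

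Of the 12 genes, 8 were higher in DNp63cKO in basal nuclei and lower in DNp63cKO in other nuclei. Ccnd2, cyclin D2, had 0.28 in basal and -1.57 in other nuclei. Etv5, a factor that answers FGF signals, had 0.80 in basal and -0.75 in other nuclei, and Mcm5, a subunit of the replicative helicase, had 0.93 and -0.55. Lama3, the α chain of laminin 332, had 0.54 and -0.73, Agrn, the proteoglycan agrin, 0.41 and -0.22, and Bcam, a laminin receptor, 0.33 and -0.37. Igf1r, the insulin-like growth factor receptor, had 0.56 and -0.63, and Atp5a1, a subunit of ATP synthase, 0.33 and -0.35.

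The other 4 were lower in DNp63cKO basal nuclei and higher in DNp63cKO other nuclei. Upk1a had -0.58 in basal and 0.34 in other nuclei and Upk3a -0.58 and 0.12, both uroplakins. Gata3, a transcription factor of the urothelium, had -0.34 and 0.13, and Acer2, a ceramidase, -0.34 and 0.10. Acer2 turned to 0.68 with the gate set on thinned nuclei and to 0.27 without nuclei holding a UMI of a mesenchymal or endothelial gate gene, and 74 of its 777 control basal UMIs came from 1 nucleus. Upk1a turned to 0.15 with the gate set on thinned nuclei, Bcam to -0.032 with 5 or more gate UMIs, and Atp5a1 to -0.19 among nuclei with a Y-linked and no Xist UMI.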

How the results depend on the processing

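Main values were basal shares of 13.8% in DNp63cKO and 15.8% in control ureters, 248 genes 2-fold higher and 519 lower, and the list medians given in the results. Each gene in each setting was counted separately. Over the settings, 4778 gene ratios of DNp63cKO over control stayed within the main counting interval and 174 moved. A further 10 changed sign where the main interval did not span both signs. Sign changes of ratios whose main interval spanned both signs are not among these 10 and were not counted apart. Krt14 and Itga6 kept their direction in every setting that measured them. The cause was not tested for any change below. The limits are 1 library per genotype, 139 DNp63cKO nuclei and 213085 UMIs. No paired analysis was possible because each group has 1 library.

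With a gate of 2 or more UMIs the share was 21.1% in DNp63cKO and 28.3% in control ureters, the superficial median of DNp63cKO over control 0.044, and that of basal over other nuclei -0.83 in DNp63cKO and -0.48 in control ureters. With a gate of 5 or more the shares were 6.47% in DNp63cKO and 5.62% in control ureters, the medians of DNp63cKO over control -0.35 for basal cell genes and -0.17 for the nephric list, Bcam -0.032, and the medians of basal over other nuclei 1.45 for basal cell genes in DNp63cKO and -0.94 for superficial genes in control ureters. Without Krt5 in the gate the shares were 10.6% in DNp63cKO and 12.1% in control ureters.

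With the gate of 2 or more UMIs on nuclei thinned to 1000 UMIs, the control share was 19.8%, the superficial median -0.00223, Acer2 0.68 and Upk1a 0.15, and in control ureters basal over other nuclei had medians of 1.30 for basal cell genes and -1.11 for superficial genes. Without nuclei holding a mesenchymal gene UMI the control share was 14.3%, the nephric median -0.30, oxidative phosphorylation 0.72, Acer2 0.27, the basal cell median of basal over other DNp63cKO nuclei 1.66 and the superficial one in control ureters -0.86. Without nuclei holding a cycling gene UMI the shares were 10.8% in DNp63cKO and 12.3% in control ureters, and the superficial median of basal over other DNp63cKO nuclei -1.40.

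Among nuclei with a Y-linked and no Xist UMI (22 DNp63cKO and 33 control basal nuclei), the control share was 10.7%, 73 genes were 2-fold higher and 113 lower, and the medians were 0.82 for basement membrane and -0.61 for superficial genes. Atp5a1 had -0.19, Atp5g3 -0.25, Dsg2 0.19, Gsdmc2 -0.20, Itgb1 -0.15 and Tbx3 0.25. Basal over other nuclei, the superficial median was -1.82 in DNp63cKO and -1.15 in control ureters, with Aqp3 at -0.11 in DNp63cKO and Cd151 at -1.51 and Mfge8 at -0.45 in control ureters.

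A pseudocount of 20 CPM gave 76 genes higher and 172 lower, and a basal cell median of basal over other DNp63cKO nuclei of 1.69. Median of ratios scaling gave a superficial median there of -1.48. Subtracting free RNA gave 465 genes higher and 1020 lower, that basal cell median 2.33, and superficial medians of -1.62 in DNp63cKO and -0.81 in control ureters. Counting genes with 5 or more UMIs gave 595 higher, 1105 lower and a basal cell median of 1.62 in DNp63cKO, and with 100 or more UMIs 26 higher, 71 lower and 1.26. Against other nuclei with 0 gate UMIs the basal cell median was 2.43 in DNp63cKO and 1.30 in control ureters. Thinning to 1500 UMIs put the DNp63cKO share with a Krt14 UMI at 38.6%. Leaving out shared barcodes and keeping only nuclei with a Krt5 UMI were chosen after seeing the data, and nuclei with a Krt5 UMI gave a superficial median of -0.43.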

Other observations

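Several pathways had list medians near 0 in basal nuclei, which does not show that they did not differ. Of 13 measured genes of the BMP and TGF-beta response 7 were higher and 6 lower, and the median log2 ratio of DNp63cKO over control was 0.02, while in other nuclei 3 of 14 were higher, with a median of -0.35. Id1 and Id3, targets of BMP signals, were at 826 CPM and 497 CPM in DNp63cKO basal nuclei and at 764 CPM and 422 CPM in control basal nuclei, with intervals of the ratio that held 0. Id3 had a ratio of 0.24 in basal nuclei (-0.09 to 0.56) and -0.53 in other nuclei. The WNT response and receptor list had 5 of 9 measured genes higher and a median of 0.07, and Rnf43, a ligase that removes WNT receptors, had the largest ratio of the list, 0.73 (-0.05 to 1.58).

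Of 6 measured hedgehog genes 2 were higher and 4 lower, the list having a median of -0.15, and Shh was the one whose interval left out 0. Ptch1, the hedgehog receptor, was at 46.9 CPM in DNp63cKO against 54.4 CPM in control basal nuclei, and at 154 CPM in DNp63cKO against 261 CPM in control mesenchymal nuclei. Of 5 measured retinoic acid genes 2 were higher and 3 lower, and Dhrs3, a retinal reductase, was at 258 CPM in DNp63cKO against 402 CPM in control basal nuclei (log2 -0.63, -1.08 to -0.22), with -0.62 in other nuclei. Immediate early and heat shock genes, which handling of tissue can turn on, had 5 of 10 higher and 5 lower, with a median of -0.02. Of 13 columnar and mucosal genes only Clu, the chaperone clusterin, was measured, at 329 CPM in DNp63cKO against 419 CPM in control basal nuclei.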
